A study of Mus musculus with 30 samples.

Results

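This comparison sets mouse embryoid bodies of a Pali1 knockout line against those of its Pali wild type line after 4 days of differentiation, across all genes. Its members are the 4 libraries that the labels place in those groups, 2 of Pali1 knockout and 2 of Pali wild type at day 4, of 30 libraries in all. The study profiled RNA of 5 embryonic stem cell lines at days 0, 4 and 8: Pali wild type, Pali1 knockout (Pali1-/-), Pali1/2 double knockout (Pali1-/-, Pali2-/-), an Aebp2 gene trap line (Aebp2gt/gt) and C129 wild type, with 2 libraries in each of 15 groups. Stem cells were kept on gelatin with serum and the cytokine LIF at day 0, and became embryoid bodies, floating aggregates that begin to form the germ layers, once LIF was withdrawn. The replicates are described as biological duplicates, and p-values measure the spread between such pairs. The sources used here give neither the number of clones behind the knockout nor how it was made, so a difference between the lines and an effect of the deletion cannot be told apart. Values are the authors' normalised counts per gene, and every difference is knockout minus wild type on the log2(value + 4) scale, which understates the change of genes with low values.

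PALI1 is a vertebrate protein made from the Lcor locus. It binds Polycomb repressive complex 2 (PRC2), the enzyme that methylates lysine 27 of histone H3 at silent developmental genes, and PALI2 is the related product of Lcorl. Stem cells that lack PRC2 activity keep renewing themselves but fail to regulate many of these genes when they differentiate, which is why embryoid bodies are used to test its partner proteins. Lcor (chromosome 19, 41482637 to 41562261, plus strand, GRCm38) had 90.0 and 56.9 normalised counts in the knockout libraries at day 4 and 128.7 and 60.4 in the wild type libraries. The groups overlapped, with a difference of -0.29 (adjusted p = 0.821). Lcorl (chromosome 5, 45697181 to 45857615, minus strand) had 652 and 606 against 718 and 641, with a difference of -0.11 (adjusted p = 0.866). Lcor also makes other proteins, and the table gives 1 value per gene, so these values do not check the deletion of PALI1.

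Fgf5, a marker of the primed epiblast, the state that follows the naive one of stem cells, was high in both groups at day 4. It had 2216 and 2207 in the knockout and 2752 and 3140.4 in the wild type libraries, where the libraries of day 0 had 16.6 and 12.3 in the knockout and 4.52 and 5.51 in the wild type. Pou5f1, the factor OCT4 of pluripotent cells, was still at 17511 and 17082 against 10339 and 9482, a pair of groups that did not overlap but did not pass the test (adjusted p = 0.111). The 4 libraries held an estimated 15074700 to 18917400 reads, with the most frequent value above 0 taken as 1 read. In each of them 12612 to 12843 genes reached a value of 10. Duplicates correlated at 0.958 in the knockout and 0.956 in the wild type (Pearson, across genes on the log2 scale; genes are not independent replicates). An exact 0 in this table can be a failed estimate: Ezh2, which encodes the PRC2 enzyme itself, stood at 0 in the wild type pair and at 0 and 11.4 in the knockout pair. For a gene at 0 throughout 1 group, only its values are therefore given; this held for 11 called genes in the wild type and 1 in the knockout.

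At day 4, 420 of 15712 tested genes (2.67%) differed at an adjusted p under 0.05. Of these, 168 (1.07% of those tested) were higher in the knockout and 252 (1.6%) were lower. The difference was at least 2-fold for 95 of the higher and 121 of the lower genes. The median difference was 1.09 among the higher genes, -0.96 among the lower and 0 over all tested genes. The groups overlapped for none of the 420, although 43.4% of all tested genes also had groups that did not overlap. With 1 of the 4 libraries left out, the count fell to 150 without knockout replicate 1, 157 without knockout replicate 2, 184 without wild type replicate 1 and 298 without wild type replicate 2. Of the 420, 84 genes were called in all 4 of these fits, 22 higher and 62 lower, and the accounts that follow say which of the named genes were among them. In a limma fit on the 4 libraries alone 0 genes passed, with 1972 of 13112 genes at an unadjusted p under 0.05 and a lowest adjusted p of 0.0682.

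The largest rises with usable values in both groups began with Ttc17, a tetratricopeptide repeat gene, which had 164 and 163 in the knockout and 7.25 and 4.39 in the wild type libraries. The groups were far apart and their difference was 4.11 (SE 0.74, adjusted p = 0.00506), and the gene was called in all 4 fits that left out 1 library. Zfp951, a zinc finger gene, had 948 and 1003 against 74.3 and 40.6, a difference of 4.05 (adjusted p = 8.23e-05) that was called in all 4 fits that left out 1 library, and it was also called higher at day 0 (3.63) and day 8 (2.49). The other large rises were those of Fam171b (3.56), Zfp182 (3.22, with discordant wild type duplicates of 149 and 13.2), the cadherin gene Cdh22 (2.86), the signalling gene Fgf8 (2.83), Ccdc85a (2.63), Fmr1nb (2.54), the glutamate receptor gene Gria4 (2.46), Nlrp5-ps (2.42), Vstm2l (2.42) and Wnt8a (2.32). Of these 10, Fam171b was called in all 4 fits that left out 1 library, and the other 9 each missed the test in at least 2 of them. Gm21293, Gm21304, Gm6763 and Gm8764, 4 neighbouring models on chromosome 10 that were also called higher, carry identical values and count as 1 measurement.

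Among the largest falls, Gpa33, which encodes a cell surface glycoprotein of epithelia, had 72.6 and 66.6 in the knockout and 574 and 562 in the wild type libraries. The duplicates lay close together in both groups, and the difference of -2.96 (SE 0.22, adjusted p = 7.65e-07) was called in all 4 fits that left out 1 library. Gpa33 was also lower at day 0, where the difference was -1.80, and at day 8, where it was -2.53. Setd1b, a histone H3 lysine 4 methyltransferase gene, had 0.968 and 0 in the knockout and 359 and 283 in the wild type libraries, while at day 0 it had 389 and 332 in the knockout and 184 and 314 in the wild type. Its fitted difference of -6.18 (adjusted p = 5.28e-06) depends on the pseudocount. Lncenc1, a long noncoding RNA of stem cells, had 525 and 771 in the knockout and 4272 and 3465 in the wild type libraries (-2.59, SE 0.26, adjusted p = 2.26e-05). Man2a2, a Golgi mannosidase gene, had 9.68 and 101 against 481 and 485 (-3.69, adjusted p = 0.00223), and Triml1, a tripartite motif gene, had 34.8 and 25.4 against 214 and 129.5 (-2.34, adjusted p = 0.00153). These 3 genes were called in all 4 fits that left out 1 library. Tm9sf4, Rere, Car4, Vill, Tmem120b and Adad2 were each listed at 0 in 1 of the knockout libraries and at 59.3 or more in both wild type libraries. Each of these 6 missed the test in at least 2 of the 4 fits that left out 1 library. Tmsb4x, which encodes the actin-binding peptide thymosin beta 4, was listed at 0 and 0 in the knockout and at 342 and 481 in the wild type libraries, but also at 0 and 0 in C129 wild type at day 4 and at 848 and 1271 in the knockout at day 8.

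The median difference of whole chromosomes lay between -0.04 and 0.03, but a stretch of chromosome 6 was lower in the knockout as a block. Its boundaries were set on the day 0 libraries alone, as the run of neighbouring genes with a mean of at least 50 that lay farthest below the wild type, and ran from Pdia4 to Tgoln1 (chromosome 6, 47796141 to 72617000, GRCm38, 24.8 megabases, 75 such genes). At day 4, 37 of the 127 tested genes in the stretch were called lower (29.1%) and 0 higher. The median difference in the stretch was -0.75, against 0.03 in the 614 other tested genes of chromosome 6, of which 14 were lower and 4 higher. Groups did not overlap, with the knockout lower, for 84 of the 127 genes, against 21.5% of all tested genes. The stretch held 14.7% of all lower calls and 0.808% of all tested genes, and 21 of its 37 called genes were called in all 4 fits that left out 1 library. Without knockout replicate 1, 24 were called, without knockout replicate 2, 28, without wild type replicate 1, 27, and without wild type replicate 2, 29.

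**Figure D1:**
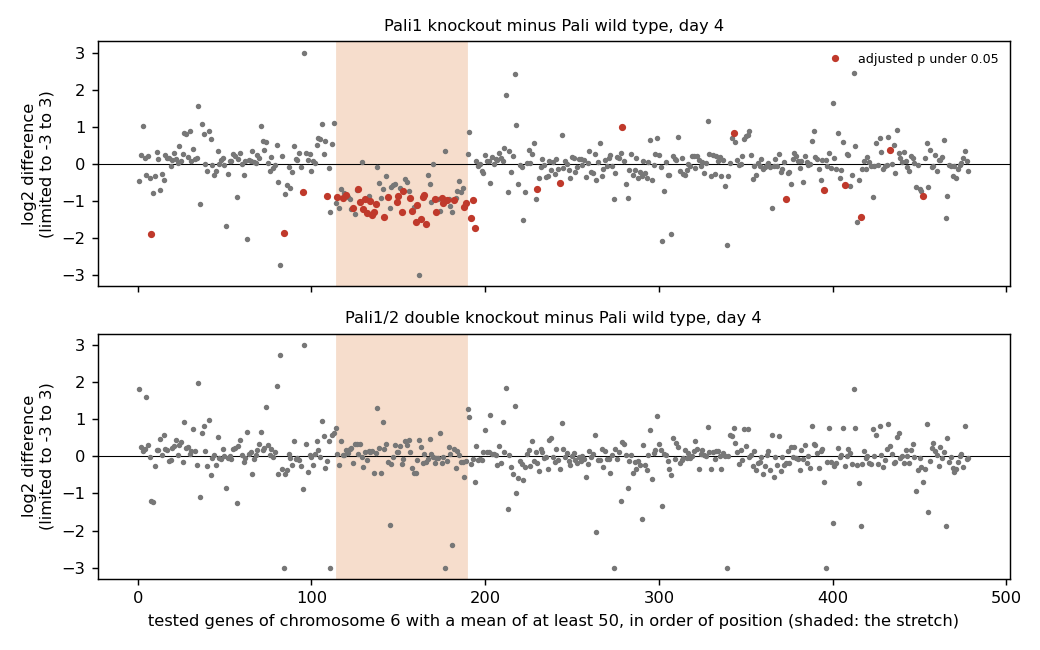
Log2 difference at day 4 of each tested gene of chromosome 6 with a mean of at least 50, in order of position (x axis, gene order; y axis, log2 difference limited to -3 to 3), for Pali1 knockout (top) and Pali1/2 double knockout (bottom) against Pali wild type, with the stretch shaded and called genes of the top panel in red. In the shaded stretch the knockout points lie around a median of -0.93 and the double knockout points around 0.05.

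Serbp1, which encodes an mRNA-binding protein, shows the size of the shift. It had 13292 and 14154 in the knockout and 25288 and 26199 in the wild type libraries at day 4, a difference of -0.91 (SE 0.08, adjusted p = 6.37e-06) that was called in all 4 fits that left out 1 library. Its values were 14168 and 14966 against 27977 and 28221 at day 0 and 10681 and 9725 against 21748 and 23593 at day 8, so the knockout stood at a similar distance below the wild type at each time. The adaptor gene Skap2 had 182 and 214 against 496 and 541 (-1.37, adjusted p = 6e-05). Immt, a mitochondrial inner membrane organiser, differed by -1.05 (adjusted p = 6e-05). Both were called in each fit that left out 1 library. Of the 37 called genes, 30 were also called lower at both day 0 and day 8. The stretch was chosen for its low values at day 0, so only the day 8 calls are free of that choice. Beyond the last gene of the stretch, Tmsb10, another thymosin gene, and Suclg1, a subunit of succinyl-CoA ligase, were called lower as well, with differences of -1.45 (adjusted p = 6.31e-05) and -0.96 (adjusted p = 0.00037), while Tcf7l1 between them and the stretch had a difference of 0.27.

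The low level of the stretch was seen in all 6 Pali1 knockout libraries. Set against the mean of the 6 Pali wild type libraries, the median of its genes ran from -1.05 to -0.85 in the 6 Pali1 knockout libraries of all 3 days. The stretch was chosen for its low values at day 0. The reference mean includes the day 0 wild type libraries used for that choice. In the knockout libraries of days 4 and 8, which were not used for it, the median ran from -0.93 to -0.85. It ran from -0.07 to 0.04 in the Pali wild type libraries, which lie near 0 by construction because their own mean is the reference. The median ran from -0.01 to 0.11 in the double knockout and from -0.07 to 0.13 in the Aebp2 gene trap libraries. The C129 libraries, labelled wild type, were also below 0, from -0.90 to -0.24. The median of genes outside the stretch stayed between -0.01 and 0.04 in all 30 libraries. DNA copy number in the lines was not measured here, and its part in the result was not tested. Without the genes of the stretch, and with p-values adjusted again, 370 genes were called at day 4, 162 higher and 208 lower, an alternative chosen after seeing the data. Of the gene groups described in the next paragraphs, only Gadd45a among the p53 targets lies in the stretch and was called.

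**Figure D2:**
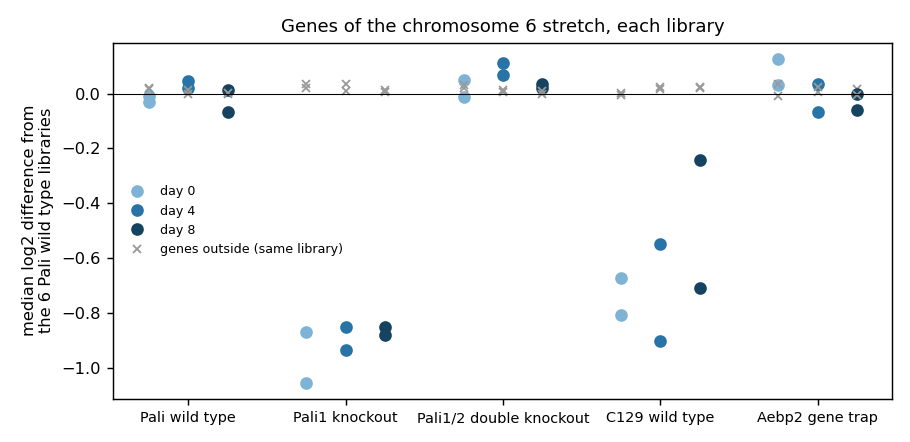
Median log2 difference of the genes of the chromosome 6 stretch from the mean of the 6 Pali wild type libraries (y axis) in each of the 30 libraries by line (x axis) and day (shade), with crosses for the genes outside it. All 6 Pali1 knockout libraries lie at -0.85 or lower, the C129 wild type libraries between -0.90 and -0.24, and the other 3 lines near 0. The stretch was chosen on day 0 values of the Pali1 knockout and Pali wild type, and the mean of the Pali wild type libraries sets 0.

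Several genes of naive pluripotency, the state of LIF-grown stem cells and of the early epiblast, were lower in the knockout embryoid bodies. Of 21 tested genes of this list, 7 were called lower and 0 higher (1.6% and 1.07% over all genes). The median difference was -0.62 (-0.39 without knockout replicate 1), and 18 of the 21 differences were negative. Outside the chromosome 6 stretch, 7542 of 15585 tested genes had negative differences. Tdh, the threonine dehydrogenase on which mouse stem cells depend for growth, had 1986 and 2438 in the knockout and 6713 and 7259 in the wild type libraries. The knockout libraries were both far below the wild type ones, with a difference of -1.66 (SE 0.15, adjusted p = 7.47e-06), and the gene was called in all 4 fits that left out 1 library. Dppa5a, a stem cell RNA-binding protein, had 3067 and 3890.0 against 8594 and 8642 (-1.32, adjusted p = 8.18e-05). It was called in all 4 fits that left out 1 library, as was Mkrn1, a ubiquitin ligase gene of chromosome 6 outside the low stretch, with 4009.6 and 3819.5 against 6477 and 6788 (-0.76, adjusted p = 0.00206). Tfcp2l1, a transcription factor of the naive network, had 1455 and 1342 against 5148 and 3264 (-1.55, adjusted p = 0.00235) and was not called without wild type replicate 1 (adjusted p = 0.0514).

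The 3 other called members were Zfp42, Esrrb and Nr0b1, chosen for description after their values were seen. Zfp42, or REX1, the usual marker of the naive state, already stood lower at day 0. It then had 4223 and 3511 in the knockout and 9168 and 7644 in the wild type libraries. At day 4 it had 753 and 663 in the knockout and 2277 and 1919.9 in the wild type libraries, a difference of -1.56 (adjusted p = 0.00915). The groups did not overlap, but the gene was not called without wild type replicate 1 (adjusted p = 0.0909), without knockout replicate 1 (adjusted p = 0.0546) or without knockout replicate 2 (adjusted p = 0.103). Esrrb, an orphan nuclear receptor, had 1612 and 1845 against 4127 and 4153 (-1.26, adjusted p = 0.00606) and was not called without knockout replicate 1 (adjusted p = 0.0705). Nr0b1, another orphan receptor, had 93.9 and 152 against 300.0 and 367 (-1.44, adjusted p = 0.0228) and was not called without wild type replicate 1 (adjusted p = 0.0763), without wild type replicate 2 (adjusted p = 0.136) or without knockout replicate 1 (adjusted p = 0.233). Klf2, Spp1 and Fgf4 were not called, with differences of -0.62, -0.69 and -0.22. The number of members called lower was 4 without knockout replicate 1, 6 without knockout replicate 2, 4 without wild type replicate 1 and 7 without wild type replicate 2.

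**Figure D3:**
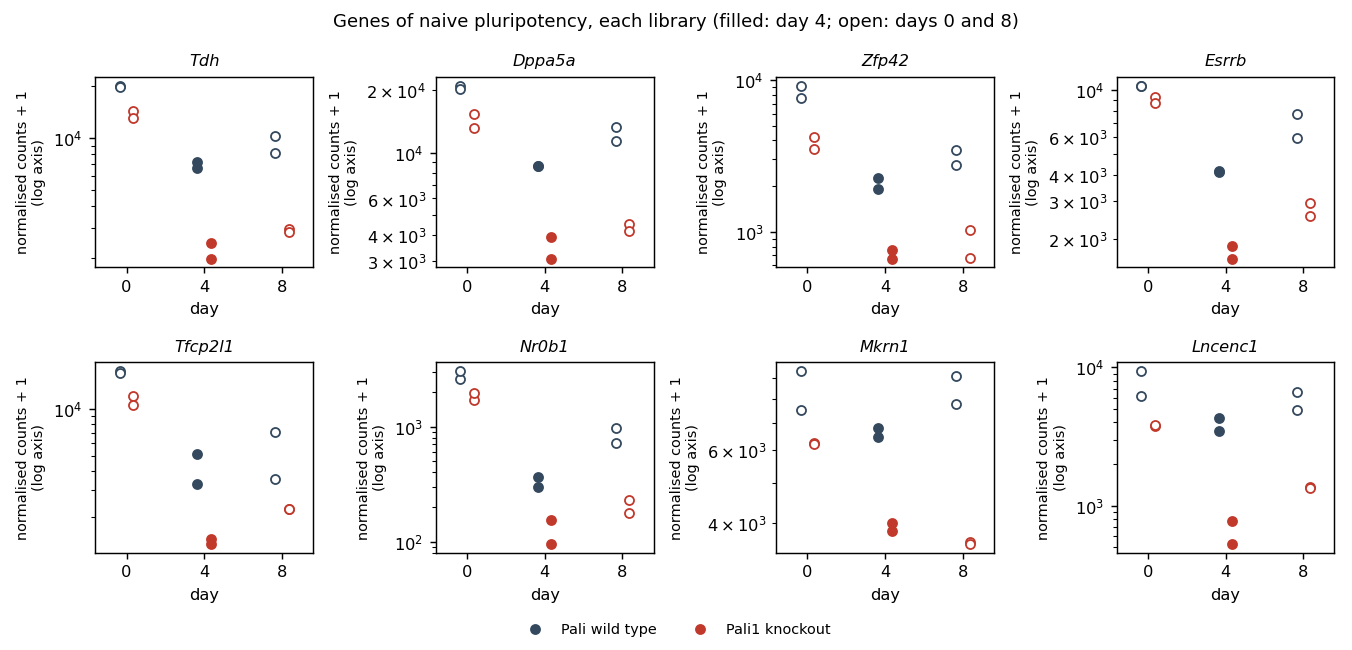
Normalised counts plus 1 (y axis, log scale) of 7 called naive pluripotency genes and the noncoding RNA gene Lncenc1 at days 0, 4 and 8 (x axis) in each Pali wild type library (dark) and Pali1 knockout library (red), with day 4 filled. At day 4 both knockout points lie below both wild type points in all 8 panels.

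The values of Tdh were lower at day 4 than at day 0 in both lines, and the knockout stood lower at the end. Tdh went from 20022 and 19717 to 6713 and 7259 in the wild type and from 14362 and 13042 to 1986 and 2438 in the knockout. The knockout difference of Tdh was farther below 0 at day 4 than at day 0, with a change of -1.13 (adjusted p = 0.0265, limma test of the difference itself), and 67 genes of all tested (0.426%) changed their difference between these days. At day 0, 3 of the 21 naive genes were lower and 0 higher, with a median of -0.13. Over all genes at day 0, 1.75% were lower and 3.04% were higher. At day 8, 14 were lower and 0 higher, with a median of -1.13, against 6.52% lower and 7.07% higher over all genes.

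The Zfp42 promoter carries an octamer, the 8-base word bound by POU factors such as OCT4. Both strands of 15196 RefSeq promoters of tested genes (GRCm38.p6, from 250 bases before to 50 after the start) were searched for ATGCAAAT. The word was in 1.37% of all promoters, in 9 of 252 promoters of genes called lower (3.57%) and in 3 of 138 promoters of genes called higher (2.17%). RefSeq promoters were matched for 196 of the 252 lower and 113 of the 168 higher genes, and some genes have several. The following 2 promoters are shown because Zfp42 is the best known of the 9 lower genes and Gadd45a is the one with 2 matches, as the 250 bases before the start, with the octamer or its reverse complement in capitals and the sequence 5′ to 3′ on the gene's strand.
Zfp42 (chr8:43307010-43307259, minus strand): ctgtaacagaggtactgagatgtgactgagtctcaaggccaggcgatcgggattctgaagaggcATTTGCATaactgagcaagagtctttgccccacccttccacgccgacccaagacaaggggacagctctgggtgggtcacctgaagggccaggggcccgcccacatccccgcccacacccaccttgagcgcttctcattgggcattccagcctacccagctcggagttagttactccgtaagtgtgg
Gadd45a (chr6:67037408-67037657, minus strand): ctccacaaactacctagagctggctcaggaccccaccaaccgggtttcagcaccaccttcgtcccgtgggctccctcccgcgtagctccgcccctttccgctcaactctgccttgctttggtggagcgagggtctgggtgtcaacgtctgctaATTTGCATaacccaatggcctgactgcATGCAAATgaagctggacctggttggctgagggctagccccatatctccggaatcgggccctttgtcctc
In Zfp42 the match lies 186 bases before the annotated start, and in Gadd45a the first lies 97 bases before it. A match describes the sequence and does not show that a factor binds it.

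LIF signals through STAT3, and some targets of this pathway were lower too. Of 12 tested genes 4 were called lower and 0 higher (1.6% and 1.07% over all genes), with a median of -0.52. They were Tfcp2l1, which is also in the naive list, Stat3 itself (449 and 403 against 738 and 641, -0.69, adjusted p = 0.00575) and the kinase genes Pim1 (-0.76) and Pim3 (-0.58). Stat3 was not called without wild type replicate 1 (adjusted p = 0.0801) or without knockout replicate 2 (adjusted p = 0.0871), Pim1 was called in none of the 4 fits that left out 1 library (adjusted p = 0.0588 to 0.133), and Pim3 was not called without wild type replicate 2 (adjusted p = 0.0948), without knockout replicate 1 (adjusted p = 0.0636) or without knockout replicate 2 (adjusted p = 0.0836). The count of lower members was 2 without knockout replicate 1, 1 without knockout replicate 2, 1 without wild type replicate 1 and 3 without wild type replicate 2. The receptor genes Il6st (-0.30) and Lifr (-0.45) were not called.

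Of 11 core pluripotency factors tested, 1 was called lower and 0 higher (1.6% and 1.07% over all genes), with a median of 0.01. Nanog had 6642 and 7789.6 against 6245 and 7624 and Sox2 5429 and 6294 against 6282 and 6526, with differences of 0.06 and -0.13 that did not pass the test. The called gene, Dppa4, had 924 and 1013 against 1804 and 1568 (-0.80, adjusted p = 0.043) and was called in none of the 4 fits that left out 1 library (adjusted p = 0.0853 to 0.259).

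Among 17 primed epiblast genes, 1 was higher and 2 were lower (1.07% and 1.6% over all genes). Their median was 0.26, and it was 0.05 without wild type replicate 1 and 0.48 without wild type replicate 2. Wnt8a, a Wnt ligand of the epiblast, had 136 and 152 in the knockout and 29.9 and 22 in the wild type libraries, without overlap, but was called in none of the 4 fits that left out 1 library (adjusted p = 0.0763 to 0.145). Car4, a carbonic anhydrase gene named with the largest falls, was the other lower member beside Etv5. Etv5, a transcription factor induced by FGF signalling, had 4445 and 4846 against 9794 and 10088 (-1.10, SE 0.09, adjusted p = 1.68e-06). It was called in all 4 fits that left out 1 library and was also lower at day 0 (-0.73) and day 8 (-1.35). The DNA methyltransferase gene Dnmt3b had 68117 and 65652 against 31149 and 27461, a difference of 1.19 that did not pass the test (adjusted p = 0.104). In the list of 23 FGF and ERK pathway genes, Etv5 and Dusp4 were lower and Fgf8 was higher. Dusp4, a phosphatase that acts as feedback on ERK, had 1328 and 1421 against 3551 and 3539 (-1.37, adjusted p = 7.1e-05) and was called in all 4 fits that left out 1 library. Fgf8, a ligand, had 40.3 and 79 against 4.78 and 4.24 (2.83, adjusted p = 0.00867) and was not called without wild type replicate 1 (adjusted p = 0.0551), without wild type replicate 2 (adjusted p = 0.0504) or without knockout replicate 2 (adjusted p = 0.13).

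Polycomb genes themselves and a list of their classical targets showed few calls at day 4. With 1.6% of all genes lower and 1.07% higher, lists of these sizes would hold few calls in any case. The counts are therefore not read as a result about these genes. Of 6 PRC2 core genes, 8 accessory genes and 22 genes of PRC1, the sister complex, 0 were called in either direction by limma, and 1, 1 and 3 of them had an unadjusted p under 0.05. Their medians were -0.06, -0.07 and -0.20, the last being -0.04 without knockout replicate 1. Suz12, a core subunit, had 5362 and 5624 against 7635 and 5892 (-0.29), and the accessory gene Jarid2 had 3629.8 and 4188 against 4076 and 3484 (0.05). Aebp2 was at 2696 and 2500.4 against 2258 and 2255. Of 68 tested developmental regulators from the list of Polycomb targets, 1 was lower and 0 were higher, with a median of -0.16 that was 0 without wild type replicate 2. In the libraries of day 8, 18 of these 68 genes were higher and 4 lower, against 7.07% and 6.52% of all genes. For 6 the difference moved up between day 4 and day 8 by its own test, against 0.999% of all genes in either direction. At day 0, 1 was higher and 2 were lower, against 3.04% and 1.75% of all genes.

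The other chromatin list, of 16 DNA methylation and demethylation genes, had 0 higher and 1 lower, the imprint-protecting factor gene Zfp57 with 494 and 564 against 703 and 892 (-0.58, adjusted p = 0.0449), which was not called without wild type replicate 2 (adjusted p = 0.297), without knockout replicate 1 (adjusted p = 0.28) or without knockout replicate 2 (adjusted p = 0.118).

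Noncoding RNAs of the imprinted Dlk1-Meg3 locus were higher in the knockout at day 4. This cluster on chromosome 12 is read as a single long maternal transcription unit that holds Meg3, Rian and Mirg, with Rtl1 on the paternal copy. Of its 6 tested genes, 4 were called higher and 0 lower (1.07% and 1.6% over all genes), with a median of 0.94. Meg3 had 6134 and 5499 in the knockout and 2834 and 2337 in the wild type libraries (1.17, SE 0.18, adjusted p = 0.00156), and it was called in all 4 fits that left out 1 library. Rian had 21487 and 21058 against 10600.1 and 10294 (1.03, adjusted p = 0.0107), Mirg 914 and 893 against 465 and 469 (0.95, adjusted p = 0.0441) and Rtl1 1454 and 1452 against 748 and 759.6 (0.94, adjusted p = 0.0389). In all 4 genes the duplicates lay close together and the groups did not overlap. Rian, Mirg and Rtl1 were called in none of the fits that left out 1 library, which left 1 called member, Meg3, in each. Rtl1 lies opposite its own maternal antisense transcript, and the sources used here do not say how strand entered the counting, so its value may hold reads of both.

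At day 0, 0 of these 6 genes were called by limma in either direction, 1 had an unadjusted p under 0.05 and the median was -0.04. Meg3 then had 1987 and 1550.0 in the knockout and 2093 and 1780.5 in the wild type libraries. Its difference grew from day 0 to day 4 by 1.31 (adjusted p = 0.0371). At day 8, 4 were higher again, against 7.07% of all genes, with 4200.3 and 3215 against 1569.6 and 1498 for Meg3. Elsewhere among imprinted genes, the paternally expressed Mkrn3 (1.32), Nnat (1.57) and Peg13 (2.15) were called higher, and Peg10 lower. Of these, Mkrn3 was called in all 4 fits that left out 1 library, Nnat was not called without wild type replicate 1 (adjusted p = 0.146), without knockout replicate 1 (adjusted p = 0.125) or without knockout replicate 2 (adjusted p = 0.0942), and Peg13 was called in none of the 4 fits that left out 1 library (adjusted p = 0.0836 to 0.152). Peg10, a retrotransposon-derived gene needed in placenta, had 2322 and 2474 in the knockout and 9246 and 8516 in the wild type libraries (-1.89, adjusted p = 8.81e-05), and was called in all 4 fits that left out 1 library. In all, 4 of 33 paternally expressed genes were higher and 1 lower at day 4 (1.07% and 1.6% over all genes). Of 21 maternally expressed ones, 3 were higher, Meg3, Rian and Mirg themselves, and 1 lower, Cmah (-0.74). Cmah was called in none of the 4 fits that left out 1 library (adjusted p = 0.103 to 0.176).

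**Figure D4:**
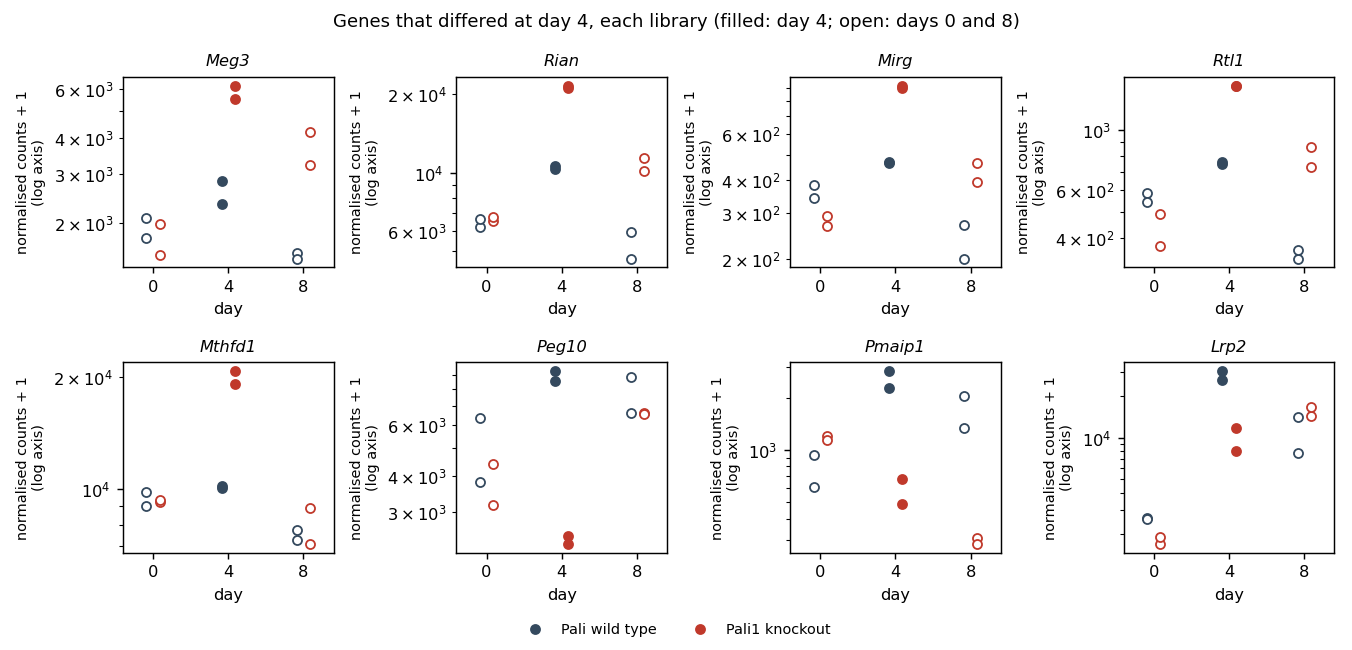
Normalised counts plus 1 (y axis, log scale) at days 0, 4 and 8 (x axis) of 4 genes of the Dlk1-Meg3 locus and of Mthfd1, Peg10, Pmaip1 and Lrp2 in each Pali wild type library (dark) and Pali1 knockout library (red), with day 4 filled. The filled points of the 2 lines do not overlap in any panel, while at day 0 those of Meg3, Rian, Mthfd1 and Peg10 lie in similar ranges.

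Genes of extraembryonic endoderm, the yolk sac layer that forms on the outside of embryoid bodies, were mostly at lower values in the knockout, but few passed the test. Of 31 tested, 27 had negative differences, as had 7542 of 15585 tested genes outside the chromosome 6 stretch. Of the 31, 2 were called lower and 0 higher (1.6% and 1.07% over all genes), and the median was -0.86. The size of this median rests on wild type replicate 2: it was -0.16 without that library and -1.62 without wild type replicate 1. The mean of the list on the log2(value + 4) scale was 5.96 and 7.69 in the wild type replicates 1 and 2, against 5.60 and 5.52 in the knockout. Lrp2, the endocytic receptor megalin, had 11694 and 7997 in the knockout and 30302 and 25989.7 in the wild type libraries (-1.54, SE 0.20, adjusted p = 0.000223) and was called in all 4 fits that left out 1 library. Apoe, an apolipoprotein, had 7427 and 7407 against 11065 and 12434 (-0.66, adjusted p = 0.0324), without overlap, and was called in none of the 4 fits that left out 1 library (adjusted p = 0.0852 to 0.175). The 31 genes summed to 36545 and 30796 in the knockout, against 59039 and 62944 in the wild type libraries, sums in which Lrp2 and Apoe are the largest contributions and which hide the gap between the wild type libraries in the other genes. Of the defining markers, Afp was listed at 0 and 0 in the knockout and had 7.25 and 92.2 in the wild type libraries, Ttr had 0 and 0.876 against 1.81 and 121, Apoa1 3.87 and 2.63 against 7.25 and 128 and Sox7 16.5 and 6.13 against 24.5 and 27.4. In all, 7 of the 31 genes were listed at 0 in both knockout libraries, while 0 of them were so in both wild type libraries. Each of the 4 libraries had 4431 to 4856 of all 20563 genes at 0. Since an exact 0 can be a failed estimate, nothing is read from these counts. In bulk RNA, fewer cells of a type and less RNA per cell cannot be told apart, and the part of this cell type in the other differences was not tested.

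Lrp2 was called lower at day 4 and at neither other day. Its difference was -0.53 at day 0 (adjusted p = 0.147) and 0.55 at day 8 (adjusted p = 0.0738), and it moved up between day 4 and day 8 by 2.09 (adjusted p = 0.00139). The adaptor gene Dab2, which works with megalin in uptake, was among the 12 tested genes of the megalin complex, of which Lrp2 was lower and 0 were higher. It had 0 and 0 against 42.8 and 495, and Cubn, its co-receptor, had 25.2 and 16.6 against 41.7 and 2228, where the wild type libraries differed widely from each other. Of 17 definitive endoderm genes, 0 were called in this limma fit and 2 had an unadjusted p under 0.05, with a median of -0.70 that was 0 without wild type replicate 2 and -0.97 without wild type replicate 1. The keratin genes Krt8 (1124 and 1066 against 2541 and 3513, adjusted p = 0.0585) and Krt18 (-0.82) were not called.

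Other lineages showed at most 3 calls each, where 1.07% of all genes were called higher and 1.6% lower. Of 21 trophoblast genes, Peg10 and the transcription factor gene Tead4 (75.5 and 89.1 against 199.6 and 259.7, -1.43, adjusted p = 0.00235) were lower and 0 were higher, and Tead4 was called in all 4 fits that left out 1 library. Of 29 neuroectoderm genes, 2 were higher and 0 lower: the neural filament gene Nes (6671 and 6174 against 3184 and 3530.3, 0.94, adjusted p = 0.0345) and Fabp7 (23.2 and 67.5 against 4.53 and 12.1, 1.91, adjusted p = 0.0448). Nes was called in none of the 4 fits that left out 1 library (adjusted p = 0.089 to 0.204), and Fabp7 was not called without wild type replicate 1 (adjusted p = 0.335) or without knockout replicate 2 (adjusted p = 0.443). Of 25 primitive streak and mesoderm genes, Fgf8 was higher and 0 were lower. Among 30 germline genes, Ifitm3 (-0.94), Sycp1 (-1.17) and Tdrd12 (-1.35) were lower and 0 higher, and the highest adjusted p of these 3 in a fit that left out 1 library ran from 0.0865 to 0.131. Of 25 fibroblast and mesenchyme genes, Col3a1 was higher and Fn1 lower, and both are described with the matrix genes. Endothelial and blood genes and Hox genes, with 19 and 14 tested, had 0 calls in this limma fit and 2 and 1 members with an unadjusted p under 0.05. Among 30 collagen and laminin genes, Fn1, the matrix protein fibronectin, had 5279.8 and 4879.6 against 17244 and 8545 (-1.26), Nid2 was lower (-0.57) and Col3a1 higher (2.31), and of the 3 Fn1 and Nid2 were called in the fit without wild type replicate 2, and 0 in the other 3 such fits.

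Zscan4 genes of the 2-cell-like state, a rare state of stem cells with transcripts of the early embryo, were higher in the knockout at low levels. Zscan4c, a zinc finger gene of that state, had 64.9 and 50.8 in the knockout and was listed at 0 and 0 in the wild type libraries. Zscan4f had 54.2 and 50.8 against 0 and 0, Zscan4a 16.5 and 25.4 against 0 and 0 and Zscan4b 30.0 and 33.3 against 3.63 and 0. These were the 4 called members of 19 tested, with 0 lower, and the count was 2 in each fit that left out 1 library. Of the 19 genes, 12 were listed at 0 in both wild type libraries and 0 were so in both knockout libraries. For these 12 a lower call was not possible, and they passed the filter through other libraries. The 4 called genes are near-identical neighbours on chromosome 7 between which the authors' counting could split reads, so they are no more than 1 observation. Over all genes, 1.07% were called higher at day 4. At day 0, 12 of the 19 were higher and 0 lower, with a median of 1.70, and at day 8, 5 were higher and 0 lower. Over all genes, 3.04% were higher at day 0 and 7.07% at day 8. These counts take each of the near-identical neighbours as a separate member. The summed level of the 19 genes did not separate the groups, since Eif1a, with 762 and 958 against 785 and 1343, makes up most of it.

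Metabolism and stress lists had 0 to 3 calls each, where 1.07% of all genes were called higher and 1.6% lower. Mthfd1, a folate enzyme that supplies one-carbon units, had 19219.8 and 20791 in the knockout and 10018 and 10157 in the wild type libraries, a difference of 0.99 (SE 0.13, adjusted p = 0.000207) that was called in all 4 fits that left out 1 library. Its difference was -0.02 at day 0 and 0.08 at day 8, and both changes between days passed their tests (adjusted p = 0.0165 and 0.0265). Of 28 enzymes of threonine, glycine, serine and one-carbon metabolism, Mthfd1 was higher and Tdh lower. Of 34 glycolysis and hypoxia genes, the glucose transporter gene Slc2a3 (20025 and 20158 against 35004 and 42912, -0.95), Pdk1 (-0.78) and Mt1 (-1.06) were lower and 0 higher. Slc2a3 was not called without wild type replicate 2 (adjusted p = 0.0833), without knockout replicate 1 (adjusted p = 0.0664) or without knockout replicate 2 (adjusted p = 0.0677), and Pdk1 and Mt1 were called in none of them (adjusted p = 0.0629 to 0.289). Of 22 p53 targets, 2 were lower and 0 higher. Pmaip1, which encodes the death-promoting protein NOXA, had 484 and 679.9 against 2282 and 2841 (-2.14, adjusted p = 0.000336), and Gadd45a, a growth arrest gene in the chromosome 6 stretch, had 188 and 259 against 599 and 664 (-1.50, adjusted p = 0.000195). Both were called in all 4 fits that left out 1 library, while Ccng1 and Mdm2, other p53 targets, had differences of 0.14 and -0.18 and were not called.

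Signalling lists also had few calls, where 1.07% of all genes were called higher and 1.6% lower. Wnt pathway genes had 2 higher and 0 lower of 46, Wnt8a and the antagonist Sfrp1 (3869.9 and 4015 against 1632 and 2403, 0.99). Notch pathway genes had the ligand Jag1 higher (0.68) and the nuclear effector Rbpj lower (-0.59) of 20, Nodal pathway genes had the protease Pcsk6 lower (-0.78) and 0 higher of 19, and BMP pathway genes had 0 of 24 in this limma fit, with 5 at an unadjusted p under 0.05. Sfrp1 was not called without wild type replicate 1 (adjusted p = 0.285), without knockout replicate 1 (adjusted p = 0.128) or without knockout replicate 2 (adjusted p = 0.166), and Pcsk6 was not called without wild type replicate 1 (adjusted p = 0.0624) or without knockout replicate 2 (adjusted p = 0.0916). Jag1 and Rbpj were called in none of these fits (adjusted p = 0.0515 to 0.329). Among 5 genes of X inactivation, the noncoding RNA genes Xist (122 and 75.1 against 446 and 200.3, -1.61) and Tsix (66.8 and 50.8 against 138 and 127, -1.13) were lower. Xist was not called without wild type replicate 1 (adjusted p = 0.375), without knockout replicate 1 (adjusted p = 0.0685) or without knockout replicate 2 (adjusted p = 0.314), and Tsix was not called without wild type replicate 1 (adjusted p = 0.0825) or without knockout replicate 2 (adjusted p = 0.14). They overlap on opposite strands, so their reads may not be separable. Cholesterol synthesis genes had 0 calls among 24 in this limma fit, 0 at an unadjusted p under 0.05 and a median of -0.0034.

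**Figure D5:**
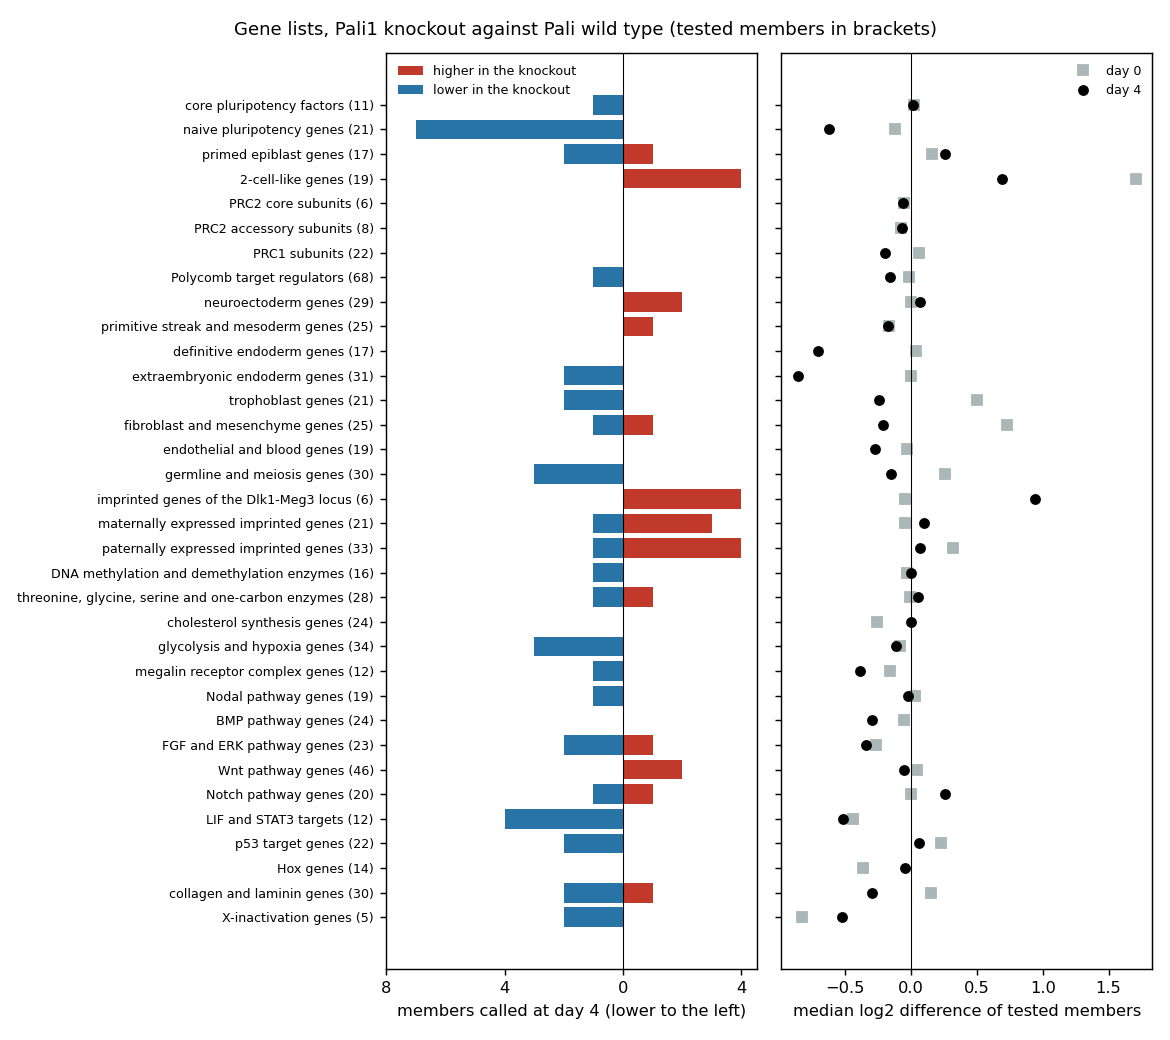
Number of tested members of each of the 34 gene lists used in the preceding paragraphs called higher (red, right) or lower (blue, left) in the Pali1 knockout at day 4 (left panel, x axis) and median log2 difference of tested members at day 0 and day 4 (right panel, x axis), with the number tested in brackets. Among the lists drawn, the naive pluripotency list has the most lower calls, 7 of 21, and the Dlk1-Meg3 list has 4 higher of 6.

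The libraries of days 0 and 8 give a view of the day 4 calls that does not rest on the same RNA, though it rests on the same lines. Calls of all 3 days also share the estimate of spread of each gene, which favours calls of the same genes. Of the 168 genes higher at day 4, 67 (39.9%) were also called higher at day 0 and 91 (54.2%) at day 8, and the median of the 168 was 0.60 at day 0 and 0.78 at day 8. Of the 252 lower genes, 76 (30.2%) were called lower at day 0 and 158 (62.7%) at day 8, with medians of -0.35 and -0.79. Outside the chromosome 6 stretch, 45 and 125 of 215 lower genes were called lower at those days. Over all genes, 3.04% were called higher at day 0 and 7.07% at day 8. For lower calls the shares were 1.75% and 6.52%. In all, 101 genes were called the same way at all 3 days, 39 higher and 62 lower, of which 32 of the lower ones lay outside the stretch. At day 4 and at neither other day 124 genes were called, 48 higher and 76 lower.

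By the test of the change itself, 7 of the higher genes and 24 of the lower genes lay farther from the wild type in the same direction at day 4 than at day 0, and 1 of each changed the other way. From day 4 to day 8, 5 of the higher and 16 of the lower genes moved back toward or past the wild type, and 1 of each moved farther. The genes were chosen on the day 4 values that enter both changes, which favours these directions, so the counts are descriptions from which nothing is read. Pmaip1 changed most among the lower p53 and naive genes described, from 0.63 at day 0 to -2.14, a change of -2.77 (adjusted p = 0.00551). Gpx4, an enzyme that protects membranes from lipid peroxidation, went from 0.37 to -0.80 (change -1.17, adjusted p = 0.00189). Dcaf12l1, a gene of a ubiquitin ligase adaptor family, had 768 and 893 against 2052 and 2683 at day 4 and 1682 and 1899.5 against 1042 and 1323 at day 0, so the groups changed places. Its change was -2.10 (adjusted p = 0.00401). Qprt, an enzyme of NAD synthesis, turned the other way, from -0.87 at day 0 to 0.69 at day 4 (adjusted p = 0.00188).

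The double knockout was set against the Pali1 knockout directly, since both share the wild type libraries. Of all tested genes 217 (1.38%) differed between the mutants at day 4, 146 of them higher in the double knockout, and 40 of these 146 lay in the chromosome 6 stretch. Without the stretch 133 genes were called. The genes called against the wild type were chosen on the same Pali1 knockout libraries, and that choice favours the opposite direction in this contrast, so the next 2 counts are descriptions from which nothing is read. Of the 168 genes higher in the Pali1 knockout, 20 were lower in the double knockout than in it, and 0 were higher. Of the 252 lower genes, 68 were higher in the double knockout, 32 of them inside the stretch, and 2 were lower still. Of the double knockout libraries of day 4, 1 carries a description of undifferentiated culture in its label, but its title gives day 4, and Fgf5 was at 2267 and 2130.3 in the pair.

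Of the genes described, Tdh was at 2207 and 2463 in the double knockout, close to the Pali1 knockout, with a direct difference of 0.08 (adjusted p = 0.933). Gpa33 was at 75.9 and 54.7 (-0.10, adjusted p = 0.951) and Meg3 at 4169 and 3932 (-0.52, adjusted p = 0.204), and Etv5 was at 5317 and 4610.5 (0.09, adjusted p = 0.779). None of these 4 passed the direct test, which does not show that the mutants were alike. Mthfd1, at 7818 and 8300.4, was lower in the double knockout than in the Pali1 knockout, with a difference of -1.31 (adjusted p = 2.6e-05). Pmaip1, at 2300.1 and 2934, was higher by 2.17 (adjusted p = 0.000672), and so were Serbp1, by 0.72 (adjusted p = 0.0001), and Setd1b, at 334 and 301. The naive list had 0 calls by limma in either direction in the direct contrast and 5 members with an unadjusted p under 0.05, with a median of -0.06.

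The C129 wild type libraries enter no knockout difference, although they share in the estimate of spread behind the calls, and give the direction of genes in early differentiation. From day 0 to day 4, 14% of tested genes rose and 15% fell in it. Of the 168 genes higher in the knockout at day 4, 65 (38.7%) rose and 36 (21.4%) fell in C129. Of the 252 lower genes, 42 (16.7%) rose and 94 (37.3%) fell. In C129, Tdh changed by -1.27, Zfp42 by -1.76 and Esrrb by -0.94. Lrp2, lower in the knockout, changed in C129 by 1.13.

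Median GC content was 55.7% in promoters of genes higher in the knockout and 60.0% both in those of lower genes and over all tested genes. The ratio of observed to random CpG frequency, which is high in CpG islands, where Polycomb complexes commonly sit, had a median of 0.64 in promoters of genes higher in the knockout, 0.74 in those of lower genes and 0.75 over all tested genes. It was at least 0.6 in 57.5% of matched higher genes, 67.3% of matched lower genes and 69.0% of all matched genes. These shares describe the promoters, and no test was made of them.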

How the data were processed

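RNA of 30 mouse libraries was analysed from a table of the authors' normalised counts, deposited as 1 signal value per gene and library. Per the submitters' processing notes, kallisto 0.43.1, HISAT2 2.0.5, DESeq2 and the build mm10 were used; their roles, the annotation and the scaling are not stated there. The deposited values sum to 15470082 to 18336791 per library. They are not whole numbers. The most frequent value above 0 of each library was taken as the step of 1 read. Of low values, 82.3% to 86.1% were whole multiples of it (within 0.001 steps), so reads were not recovered for a count model.

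Genes were matched to GENCODE M21 (GRCm38), 20361 of 20563 by symbol, 175 by synonym and 27 not. The 15712 genes that reached a value of 10 in 2 libraries or more were analysed on log2(value + 4) with limma 3.58.1 (R 4.3.3), using 1 mean for each of 15 groups, 15 residual degrees of freedom, trended and robust moderation and Benjamini-Hochberg adjustment over all tested genes, at 0.05. The scripts were tested on simulated data. Tables were made with Python 3.11.15, pandas 2.3.3 and numpy 2.4.6. Counting error sets the precision of low values, and with 2 libraries per group the spread is estimated mainly from the other groups.

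The members and gene lists were chosen with earlier results of these data known, so list counts are descriptions with no test of the list. Named genes were Lcor and Lcorl, the 12 largest rises and falls among called genes (mean of at least 50 in the higher group, no overlap, neither group at 0, unnamed models passed over), up to 4 called and 3 uncalled members of each list, up to 5 genes per direction listed at 0 in a group, and the 5 lowest p-values of each day difference and of the contrast between the mutants; the text gives those that its results turn on, and some are not reported here. Alternatives varied the pseudocount, filter, scaling, libraries fitted, moderation, a replicate block, discordant duplicates and single libraries. The chromosome 6 stretch was found, and left out as an alternative, after seeing the data.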

Additional observations from a re-analysis of the deposited data

Results flagged for a closer look

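The knockout difference changed between days, by the limma test of the change itself, for the genes named here, which were called at day 4 on values that enter the change. From day 0 to day 4 the change was downward for most of them. It was -2.77 for Pmaip1 (adjusted p = 0.00551), -2.10 for Dcaf12l1 (adjusted p = 0.00401) and -1.93 for the metal-binding protein gene Mt1 (adjusted p = 0.0355). It was -1.75 for Tead4 (adjusted p = 0.0265), -1.50 for Peg10 (adjusted p = 0.0469) and -1.47 for Dusp4 (adjusted p = 0.00598). For Gadd45a it was -1.28 (adjusted p = 0.0469), for Gpx4 -1.17 (adjusted p = 0.00189), for Tdh -1.13 (adjusted p = 0.0265) and for the phospholipid enzyme gene Selenoi -0.97 (adjusted p = 0.00316). The change was upward for Qprt (1.56, adjusted p = 0.00188), Meg3 (1.31, adjusted p = 0.0371) and Mthfd1 (1.00, adjusted p = 0.0165).

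From day 4 to day 8 the difference moved up for the kinase gene Nuak2 (2.00, adjusted p = 0.00952), Lrp2 (2.09, adjusted p = 0.00139), Pakap (1.87, adjusted p = 0.000889) and Peg10 (1.68, adjusted p = 0.0226). It also moved up for Dcaf12l1 (1.39, adjusted p = 0.035), Selenoi (0.59, adjusted p = 0.045) and Man2a2 (4.50, adjusted p = 0.0232). For Mthfd1 the change was downward, -0.91 (adjusted p = 0.0265). Selenoi had 2447 and 2226 in the knockout and 1903 and 1621 in the wild type libraries at day 4, Nuak2 260.4 and 207 against 497 and 551 and Pakap 335 and 216 against 731 and 717.

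For 2 genes with values at or near 0 in the knockout at day 4 the fitted change depends on the pseudocount and is no bound. Setd1b changed by -6.75 from day 0 to day 4 (adjusted p = 0.000983) and by 7.73 from day 4 to day 8 (adjusted p = 6.72e-05), where it had 315 and 457 in the knockout and 238 and 66.7 in the wild type. Tmsb4x changed by 2.34 (adjusted p = 0.0159) and 7.94 (adjusted p = 5.12e-09), having had 0 and 0 in the knockout and 1779.8 and 2395 in the wild type at day 0.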

How the results depend on the processing

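The count of 420 called genes lay between 369 (no filter) and 533 (replicate block) with another pseudocount, filter, scaling, moderation or gene set, and was 142 (50 higher, 92 lower) in a fit on the 10 libraries of day 4 and 0 on the 4 libraries compared, fits with fewer samples. On those 4 libraries the counts for the naive, LIF, 2-cell-like and Dlk1-Meg3 lists and for the stretch were also 0; on the day 4 libraries the naive count was 5, and the others were 1, 2, 1 and 23. Leaving out 1 of the 4 libraries gave 150 to 298 genes (41 to 89 higher, 108 to 209 lower), 4 to 7 naive, 1 to 3 LIF, 2 2-cell-like and 1 Dlk1-Meg3 member, and 24 to 29 genes of the stretch. The lower share was 60.0%, against 72.7% and 73.2% without knockout replicates 1 and 2 and 70.1% without wild type replicate 2. The 2-cell-like count was 2 with a pseudocount of 16, and the Dlk1-Meg3 count was 2 with no filter and 2 without trended and robust moderation. The difference changed between days 0 and 4 for 67 genes, and for 23 to 35 with 1 library left out. Between days 4 and 8 it changed for 157, for 46 to 83 with 1 library left out, and for 75 and 263 with pseudocounts of 1 and 16. The mutants differed in 217 genes, in 42 on the day 4 libraries, 133 without the stretch and 62 to 100 without 1 Pali1 knockout library. Except where fewer samples or genes were fitted, the cause was not tested. None of the 96 named genes reversed under these alternatives; calls lost among them numbered 43 to 52 with 1 library left out, 56 on the day 4 libraries, 94 on the 4 libraries and 0 to 11 under the others.

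The replicate block gave 533 genes at day 4, 120 for the change from day 0 and 239 for the change to day 8. The replicate numbers do not pair the samples: deviations of same-numbered day 4 libraries correlated at 0.08, with 1 of 105 pairs of groups over 0.1. The fits on day 4 libraries alone give no value for changes between days.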

Other observations

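The 4 gene lists of this section were assembled after the values were seen, so their counts describe the data and support nothing. Many genes of the actin cytoskeleton and of cell adhesion were lower in the knockout: 16 of 46 tested were called lower and 1 higher, with a median difference of -0.44, where 1.6% and 1.07% of all genes were lower and higher. Tmsb10, which binds actin monomers, had 1234 and 1221 in the knockout and 3242 and 3493 in the wild type libraries. The actin-severing factor gene Dstn had 11738 and 11995 against 15425 and 19146 and the non-muscle myosin gene Myh9 15653 and 13809 against 26903 and 21849. The integrin gene Itgb5 was the higher one, with 3255 and 3119.8 against 1624 and 1545. The actin genes Actb (-0.13) and Actg1 (0.09) and the cofilin gene Cfl1 (-0.04) were not called. Between 2 and 6 members were called lower with 1 library left out.

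Of 38 tested antioxidant and NRF2 target genes, 10 were lower and 0 higher, with a median of -0.35. They were Gpx4, Gpx2, Nqo1, Cbr3, Gsr, Srxn1, Cat, Gstm3, Pgd and Mt1. Nqo1, a quinone reductase, had 150.0 and 158 against 414 and 487, and Srxn1, which restores peroxiredoxins, had 378 and 439 against 718 and 936. Between 2 and 4 were called with 1 library left out, 5 were lower at day 0 and 19 at day 8. Over all genes, 1.75% were lower at day 0 and 6.52% at day 8. The core of the antioxidant response element, TGACNNNGC on either strand, was in 2 of 13 RefSeq promoters of these 10 genes and in 14.0% of all promoters of tested genes.

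Of 28 tested neurofilament and synapse genes, 10 were higher and 0 lower, with a median of 0.50 (0.20 without knockout replicate 1). Nefl, a neurofilament subunit, had 617 and 666 against 191 and 238, Nefm, another, 225 and 184 against 72.5 and 41.7, and the vesicle protein gene Syt4 70.7 and 67.5 against 32.6 and 18.7. With 1 library left out the count was 4 and 0 for the wild type replicates 1 and 2 and 0 and 1 for the knockout replicates 1 and 2. Of 13 tested noncoding RNA genes named Platr (pluripotency-associated transcript) or Lncenc1, 5 were lower and 0 higher. Beside Lncenc1, Platr7 had 14.5 and 15.8 against 44.4 and 50.5, Platr4 122 and 84.1 against 285 and 166 and Platr10 473 and 503 against 893 and 1177. Between 1 and 2 of the 5 were called with 1 library left out.

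Outside chromosome 6, some called genes lay beside each other. A run of 6 on chromosome 4, between 145825237 and 147904704 (GRCm38), was higher, and 5 of these, Znf41-ps, Gm13034, Zfp992, Zfp991 and Zfp982, are zinc finger genes or predicted models beside Mfn2. On chromosome 7, Zik1 was higher next to the 4 Zscan4 genes. On chromosome 11 Krt17, Stat3 and Cavin1 were lower, and on chromosome 2 Slc25a12, Hat1 and Pdk1.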
